A study of Mus musculus with 5 samples.

Results

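Trak2, Wsb2 and Prkx are 3 genes for which 1 array probe each gave a much higher signal in RNA of microvesicles from mouse heart muscle cells than in RNA of the cells themselves. They were chosen by that measured difference and are described with every probe the array holds for them, and with their relatives Trak1, Wsb1 and Prkaca, which were added for their gene family and not for their values. The 6 genes, of 16593 named on the array, were represented by 11 of its 25697 probes, 7 probes for the 3 chosen genes and 4 for the relatives. Because of that choice, the values of Trak2, Wsb2 and Prkx in the comparison of microvesicles with cells are a description and carry no test.

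The cells were HL-1, an established mouse atrial cardiomyocyte line, grown in Claycomb medium at 37 degrees and 5% CO2, and the microvesicles were those the cells released. Extracts of cell RNA (2 arrays), microvesicle RNA (2 arrays) and microvesicle DNA (1 array) were labelled as cRNA and hybridised to single-colour Illumina mouse BeadChips. The DNA had first been given a poly-T tail by terminal transferase. Microvesicle RNA array 1 shared chip 1 with both cell arrays, while microvesicle RNA array 2 and the DNA array were on chip 2, so chip and the second microvesicle sample cannot be told apart. All groups share the same line and culture, the labels name no treatment, and they do not say whether replicates came from separate cultures. Each p-value below thus reflects only how far these samples spread, and that spread may be technical.

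The microvesicle arrays differed in how much they detected. A probe counted as detected at a detection p (the share of negative control probes at or above its signal) under 0.01, which chance alone gives to 257 probes. Microvesicle RNA array 1 had 2024 detected probes and array 2 had 5605, against 4179 and 3629 for the cells and 343 for the DNA. The median raw signal was 90.9 on microvesicle array 2, against 63.0 on microvesicle array 1 and 63.6 and 62.6 on the cell arrays. Low raw signals are thus not directly comparable between arrays. Of 8 atrial cardiomyocyte markers, 7 were detected on each cell array, 3 on microvesicle array 1 and 7 on microvesicle array 2. No marker of fibroblasts (8), macrophages (5) or erythroid cells (3) was detected on any array. Of 8 endothelial markers, Tek was detected on both cell arrays and Erg on microvesicle array 1 alone.

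Trak2 and Trak1 encode adaptors that link mitochondria, through the Miro GTPases of their outer membrane, to kinesin and dynein motors on microtubules. Wsb2 and Wsb1 encode proteins with WD40 repeats and a SOCS box, the module by which a substrate receptor joins elongins and a cullin in a ubiquitin ligase. Prkx, an X-linked gene, encodes a kinase related to the catalytic subunit of the cyclic AMP-dependent protein kinase, which Prkaca encodes and through which adrenergic signals act on contraction in heart muscle. In the RefSeq annotation of GRCm38.p6, Trak2 lies at chr1:58900449-58974345, Wsb2 at chr5:117357305-117378601 and Prkx at chrX:77760972-77796235. Their relatives are on other chromosomes, Trak1 at chr9:121297502-121474919, Wsb1 at chr11:79239382-79254709 and Prkaca at chr8:83972978-83996444. Probe sequences were not used here, so where each probe lies within its transcript was not analysed.

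The RefSeq promoter table (GRCm38.p6) matched 5 of the 6 genes, all but Prkx. The windows of Trak2 and Wsb2 are shown because these chosen genes stood high together in the vesicle RNA. Each holds the 250 bases before the annotated start, 5′ to 3′ on the gene's strand, with capitals marking GC boxes (GGGCGG on either strand). The Trak2 window is chr1:58973483-58973732 on the minus strand, within the span of the gene's longest annotated form, and the Wsb2 window is chr5:117357055-117357304 on the plus strand.
Trak2: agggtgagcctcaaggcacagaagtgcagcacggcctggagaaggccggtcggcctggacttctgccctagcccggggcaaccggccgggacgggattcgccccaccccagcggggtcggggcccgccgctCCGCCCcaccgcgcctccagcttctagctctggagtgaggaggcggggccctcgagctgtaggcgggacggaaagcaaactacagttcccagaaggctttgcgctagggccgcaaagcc
Wsb2: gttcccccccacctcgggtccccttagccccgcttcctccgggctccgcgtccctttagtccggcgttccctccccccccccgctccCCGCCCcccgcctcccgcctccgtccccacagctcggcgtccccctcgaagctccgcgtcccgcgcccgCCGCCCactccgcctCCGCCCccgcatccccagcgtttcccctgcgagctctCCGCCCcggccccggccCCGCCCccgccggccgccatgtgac

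The Trak2 window held 1 GC box and the Wsb2 window 5, where 33.0% of the 32536 distinct promoter windows held at least 1. Their G and C content was 69.6% and 79.6%, against a median of 52.4% over all windows. The cyclic AMP response element TGACGTCA, the sequence bound by a target of cyclic AMP-dependent kinase, was in neither window on either strand. It was in 1 of 2 listed windows of Wsb1 and 1 of 4 of Trak1, and in 1.56% of all windows. Neither chosen gene had TATAAA in its window, which 12.3% of windows hold. These are matches of letters and do not show binding.

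Trak2 was read by 3 probes, of which 1 was bright in cells and vesicles alike. That leading probe (ILMN_2872698) had a raw signal of 3438 ± 147 (bead SE, 39 beads) on microvesicle array 1 and 9024 ± 236 on microvesicle array 2. It gave 1245 ± 51.2 and 943 ± 32.2 on cell arrays 1 and 2. Both microvesicle arrays lay above both cell arrays, and the gap on each was many times the bead SE, which is error within 1 array and not between samples. After background correction and quantile normalization its log2 values were 12.89 and 12.97 on microvesicle arrays 1 and 2 and 9.67 and 9.71 on the cell arrays, a difference of 3.24. The ratio is 9.44-fold, with an SD of 0.059 between the microvesicle arrays and 0.034 between the cell arrays (n = 2 each) on the log2 scale. Such values are relative to the other RNA on the array. More vesicles that carry a transcript and more copies per vesicle cannot be told apart.

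The other 2 Trak2 probes gave signal on microvesicle array 2 alone. Probe ILMN_2641431 read 5820 ± 226 there, against 70.2 ± 4.35 on microvesicle array 1 and 61.0 and 68.0 on the cell arrays, where it was not detected. On microvesicle array 2 it was at least 121-fold above the cells. This bound rests on 1 of 2 microvesicle arrays, since without microvesicle array 2 the log2 difference of the probe was 0.30. Between the microvesicle arrays themselves, array 2 was at least 51.5-fold above array 1. Probe ILMN_2625428 read 181 ± 8.52 on microvesicle array 2 and between 59.3 and 64.0 on the other RNA arrays. On microvesicle array 1 and in the cells, Trak2 was thus seen by its leading probe alone.

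Wsb2 had a single probe and the largest difference of the 3 genes. The probe (ILMN_2512206) read 1830 ± 63.3 (bead SE, 61 beads) and 15934 ± 593 on microvesicle arrays 1 and 2, and 192 ± 7.94 and 140 ± 9.14 on the cell arrays. It was detected on all 4 RNA arrays, and the lower microvesicle signal stood far above the higher cell signal. Normalized log2 values were 12.36 and 13.77 in microvesicles and 6.81 and 6.74 in cells, a difference of 6.29, or 78.1-fold. The microvesicle arrays differed by 1.41, an SD of 0.999 (n = 2), against an SD of 0.047 between the cell arrays. With 1 probe on the array, no second reading of Wsb2 exists in these data.

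Prkx was dim in the cells and moderately bright in vesicles. Its leading probe (ILMN_2879858) read 226 ± 12.3 (bead SE, 38 beads) and 888 ± 34.7 on microvesicle arrays 1 and 2, and 107 ± 5.65 and 94.1 ± 4.55 on the cell arrays. All 4 readings were detected, and the groups did not overlap. Its normalized log2 value was 9.40 on each microvesicle array, against 5.81 and 5.93 in cells, a difference of 3.54, or 11.6-fold. A second probe (ILMN_1238289) read 510 ± 20.0 on microvesicle array 2 and 60.1 ± 3.67 on microvesicle array 1, within the range of undetected signals. On microvesicle array 2 it was at least 8.56-fold above the cells, again a bound from that array alone, and the log2 difference was -0.19 without that array. The third probe (ILMN_2594094) was not detected on any array, at 57.0 to 76.4 on the RNA arrays.

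**Figure D1:**
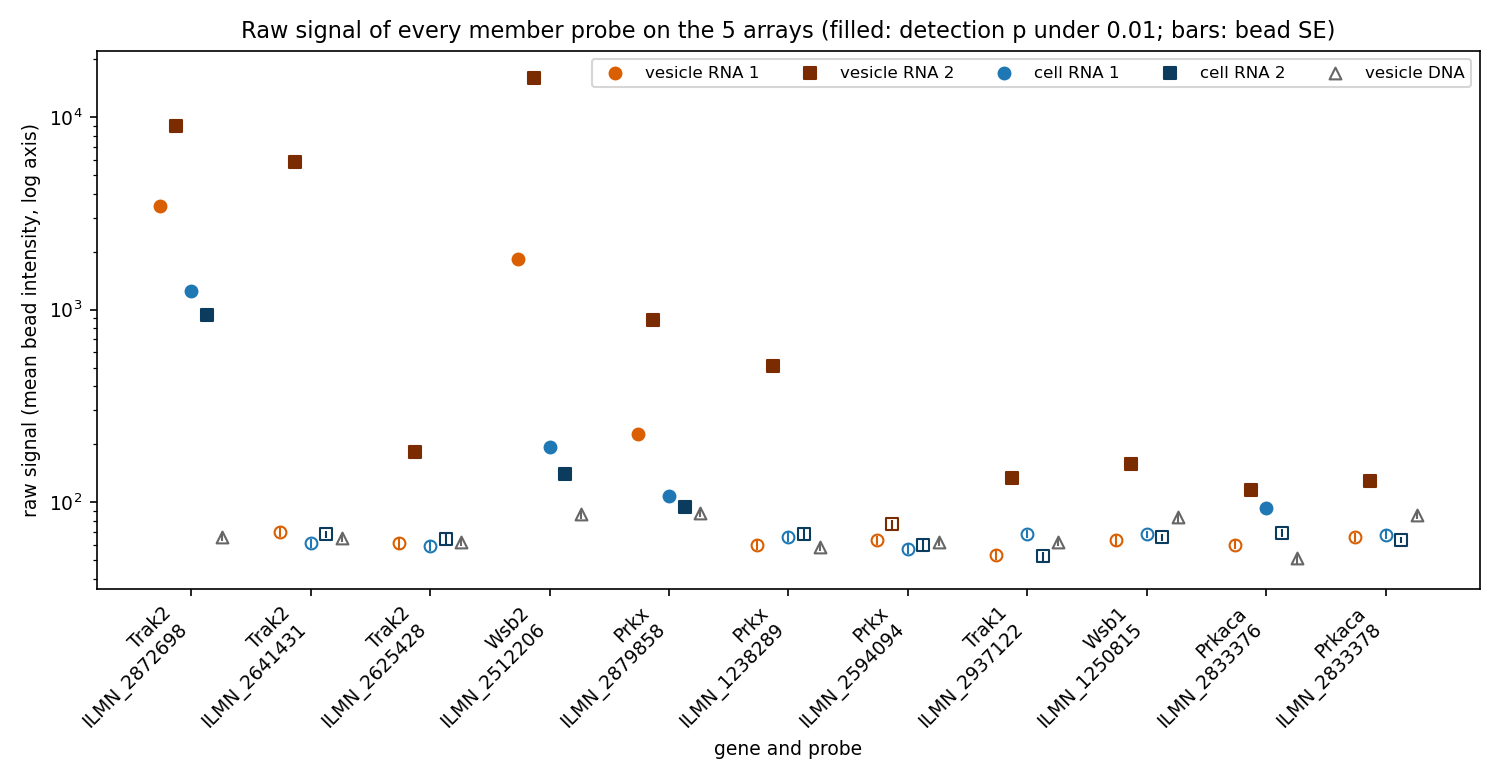
Raw signal (mean bead intensity, log axis) of the 11 probes on the 5 arrays, with bars for the bead standard error and filled symbols for detection p under 0.01. The leading probes of Trak2, Wsb2 and Prkx are filled on all 4 RNA arrays, while 3 of the other 4 probes of Trak2 and Prkx and all 4 probes of the relatives are filled on microvesicle RNA array 2, and 1 of these also on cell array 1.

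One bright probe among several was common on this array. Of 4777 genes with at least 2 probes, 587 had a probe detected on both microvesicle arrays, and in 475 of these (80.9%) it was 1 probe only. For both cell arrays the same held for 914 of 1288 genes (71.0%). Trak2 and Prkx were such genes in cells and in vesicles. Among 92 genes with a tested probe at least 2-fold above the cell mean on both microvesicle arrays, 84 (91.3%) had 1 such probe. The difference between these shares was not tested.

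The relatives gave no signal on microvesicle array 1. Trak1 (1 probe) read 53.1 ± 3.35 there and 134 ± 7.22 on microvesicle array 2, with 68.1 and 52.1 on the cell arrays, so it was detected on microvesicle array 2 alone. Wsb1 (1 probe) read 63.2 ± 4.25 and 158 ± 7.04 on microvesicle arrays 1 and 2 and 68.1 and 65.5 on the cell arrays, and was again detected on microvesicle array 2 alone. Against cells at background, microvesicle array 2 was at least 1.04-fold higher for Trak1 and at least 1.40-fold higher for Wsb1. On microvesicle array 1 and in the cells both genes were at background, so no fold is given there.

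Prkaca was read by 2 probes that were close to background throughout. Probe ILMN_2833376 passed detection at 116 ± 5.87 on microvesicle array 2 and at 92.8 ± 5.47 on cell array 1, and read 60.1 ± 3.02 on microvesicle array 1 and 69.1 ± 3.11 on cell array 2. It outranked 80.8% of probes on microvesicle array 2 and 87.0% on cell array 1, the reverse of the order in raw signal. In limma's fit over all tested probes its log2 difference was -0.46 ± 0.48 (SE, n = 2 per group), with a 95% interval from -1.85 to 0.93 and an adjusted p of 0.541. A fold of either direction within that interval is compatible with these arrays. The other probe (ILMN_2833378) read 129 ± 7.99 on microvesicle array 2, where it was detected, and 63.6 to 67.7 on the other RNA arrays.

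Of the 11 probes, 4 passed the filter of detection on at least 2 of the 4 RNA arrays and entered limma's test, namely the 3 leading probes and 1 probe of Prkaca. The fit covered 3878 probes. At an adjusted p under 0.05 it called 0 probes higher and 0 lower in microvesicles (0% each way), with 214 higher (5.52%) and 900 lower (23.2%) at an unadjusted p under 0.05. Both microvesicle arrays lay above both cell arrays in 14.4% of tested probes and below both in 51.6%. The 3 leading probes belong to the 14.4% by choice. With all probes of the array tested without a filter, limma called 179 of 25697 at an adjusted p under 0.05. None of the 4 relatives' probes was among them, and their smallest adjusted p in limma was 0.832.

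The leading probes were near the top of the difference on both microvesicle arrays, which is how they were chosen. The choice named no threshold. Ranked by the smaller of the differences on the 2 microvesicle arrays, Wsb2 was 1st of 3878 at 5.58, Prkx 3rd at 3.54 and Trak2 9th at 3.20. The 10 probes at or above 8-fold on both arrays (0.258% of those tested) also held probes that were not chosen. Those above Trak2 were Rnu6 (5.37), ILMN_2858523 (3.37), Irgm1 (3.35), Slc11a1 (3.33), Rpl37 (3.26) and Dcaf7 (3.203). The lowest of the 10 was Terf2ip at 3.05. On microvesicle array 2 taken alone the ranks were 7 for Wsb2, 147 for Prkx and 172 for Trak2, against 1, 5 and 13 on microvesicle array 1. High values of this size were thus less rare on array 2.

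**Figure D2:**
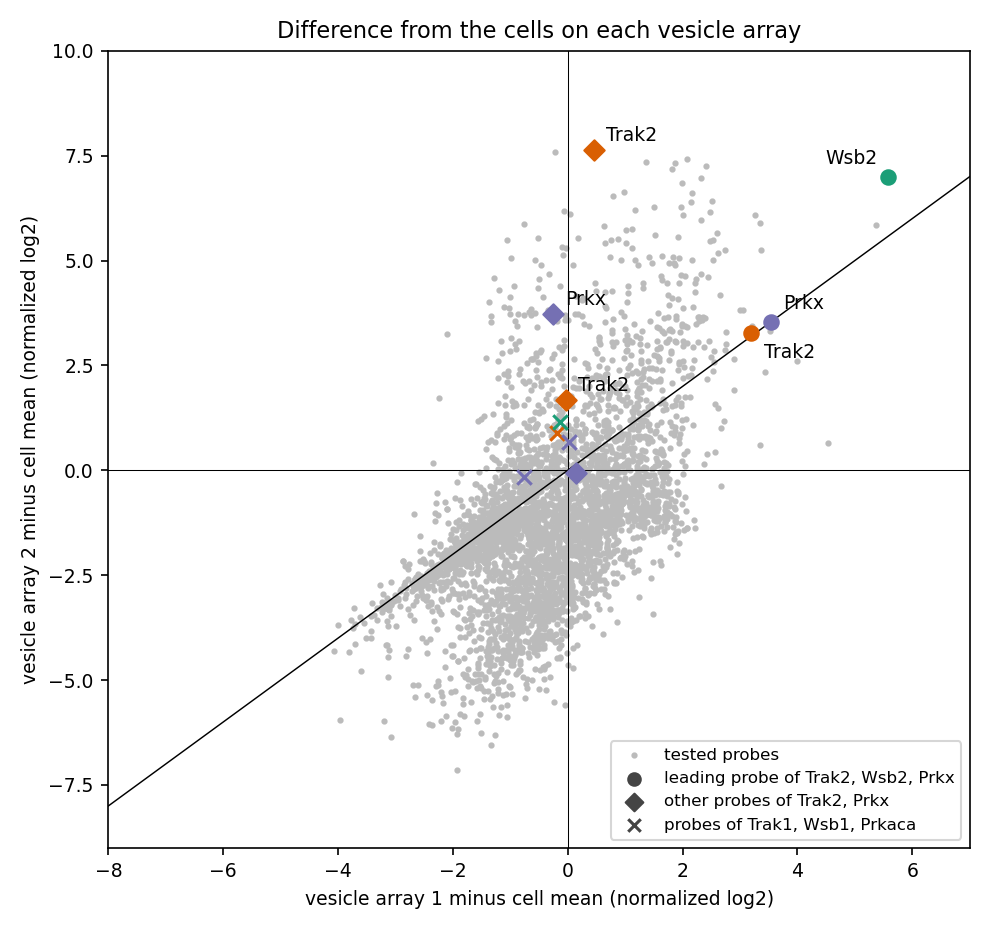
Normalized log2 difference from the mean of the cell arrays on microvesicle array 1 (x axis) and microvesicle array 2 (y axis), with grey points for the 3878 tested probes, coloured symbols for the 11 probes of the 6 genes and a line of equal difference. The leading probes of Trak2 and Prkx lie on the line at 3.20 to 3.54, Wsb2 lies above it, and the other probes of Trak2 and Prkx lie near 0 on the x axis.

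The close match of Trak2 and Prkx between the microvesicle arrays came with quantile normalization, which fixes values by rank. The Prkx probe outranked 98.4% of probes on each microvesicle array, against 88.8% and 89.5% on the cell arrays, and ended at the same normalized value although its raw signal was 226 on one and 888 on the other. Trak2 outranked 99.9% on each microvesicle array and 98.6% and 98.7% on the cell arrays. Wsb2 outranked 99.8% and 99.96% in microvesicles and 93.2% and 92.9% in cells. Taken as raw signal over the mean of the cell arrays, background included, Trak2 stood at 3.14 times on microvesicle array 1 and 8.25 times on microvesicle array 2. The same ratios were 11.01 and 95.9 for Wsb2 and 2.25 and 8.84 for Prkx.

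With median scaling or no normalization between arrays the 3 genes stayed above the cells on both arrays, but by less on array 1 than on array 2. With no normalization between arrays, the log2 differences on microvesicle arrays 1 and 2 were 1.71 and 3.11 for Trak2, 3.92 and 7.07 for Wsb2 and 1.70 and 3.91 for Prkx. This scale moved the median of the tested probes on microvesicle array 1 from -0.37 to -1.50. With median scaling the differences on microvesicle array 1 were 1.78 for Trak2, 3.99 for Wsb2 and 1.77 for Prkx, beside a median of -1.44. On that scale 16 of the 3878 probes stood at least 2-fold above the cells on both microvesicle arrays, in place of 257 (6.63%). All 3 leading probes were among the 16, but they were chosen on these same arrays, so this is no separate support. Only Wsb2 of the 3 kept 8-fold on both arrays there. In the authors' processed values, which are background-subtracted, Trak2 read 6548 and 4986 on microvesicle arrays 1 and 2 and 641 and 653 on the cell arrays. Prkx read 579 and 563 against 45.7 and 50.6 in that table, and Wsb2 3631 and 8790 against 98.1 and 94.0.

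**Figure D3:**
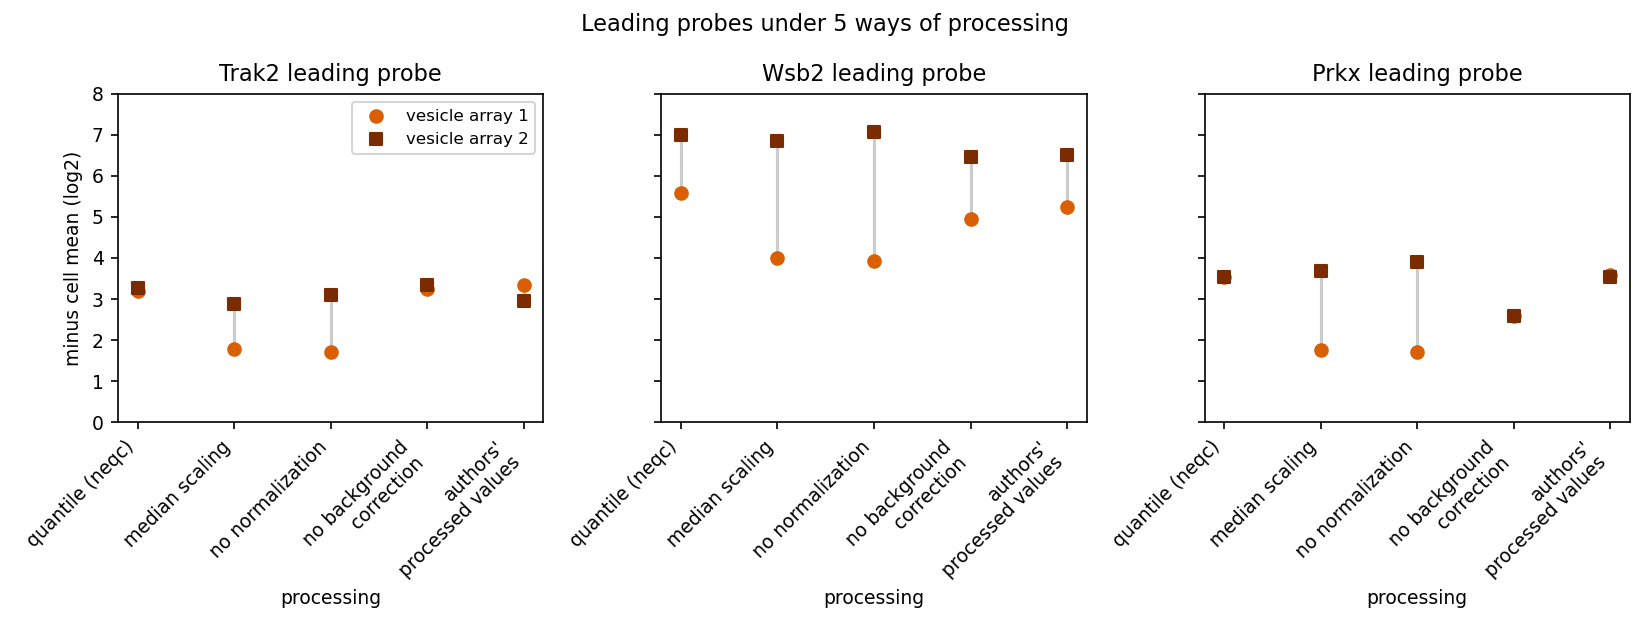
Log2 difference from the cell mean on microvesicle array 1 (circles) and array 2 (squares) for the leading probes of Trak2, Wsb2 and Prkx, under 5 ways of processing the same signals. All points lie above 0, and for Trak2 and Prkx the arrays nearly meet under quantile normalization and part under median scaling and no normalization, where array 1 lies at 1.70 to 1.78. In the authors' values Prkx nearly meets (3.59 and 3.55), while Trak2 is higher on array 1 (3.34) than on array 2 (2.95).

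None of the 11 probes was detected on the microvesicle DNA array. The leading Trak2 probe read 65.4 ± 3.05 there (detection p 0.635), above 32.9% of all probes. Wsb2 read 86.3 ± 4.59 (detection p 0.0589), above 93.9% of probes, and the leading Prkx probe 87.5 ± 4.31 (detection p 0.0464), above 95.2% and with the lowest detection p of the 11. Both raw signals were below those of both cell arrays. In the authors' processed table, where all arrays have nearly the same median, Wsb2 read 116 and Prkx 158 on the DNA array, more than in the cells. The same held for Wsb1 (51.2 against 8.27 and 6.98) and Prkaca probe ILMN_2833378 (97.9 against 7.94 and 4.68), also undetected. No other member probe exceeded both cell arrays in that table. In raw signal the remaining probes of the chosen genes read 58.2 to 65.0 on the DNA array, and those of the relatives 50.9 to 85.7. With 1 DNA array there is no replicate check, and a sequence present below the background of the array would not be seen.

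For each leading probe, the most similar probes of other genes were those with the smallest Euclidean distance of normalized log2 values over the 4 RNA arrays. Nearest to Trak2 were Kctd10 (distance 0.80) and the ribosomal protein genes Rps14 (1.17) and Rps24 (1.47), with differences of 2.77, 2.26 and 2.13 between microvesicles and cells. Nearest to Wsb2, at larger distances, were the interferon-induced GTPase gene Irgm1 (1.88), the nucleosome-binding protein gene Hmgn1 (2.59) and Klhdc10 (2.65). These 3 differed by 4.62, 3.99 and 4.13, with smaller differences on microvesicle array 1 (2.59 to 3.35) than on array 2 (5.24 to 5.89). Nearest to Prkx were the inositol phosphate kinase gene Ip6k1 (1.12), the telomere protein gene Terf2ip (1.26) and Abraxas2 (1.26), at 3.03, 3.44 and 2.41. Irgm1 and Terf2ip were detected on the DNA array, at 154 and 107, unlike the 3 leading probes. The other 2 probes of Irgm1 differed by 0.06 and -0.13 and the other 3 of Terf2ip by -0.16 to 0.09, while the other probe of Rps24 differed by 1.01, in the same direction as its nearest probe. Kctd10, Rps14, Hmgn1, Klhdc10, Ip6k1 and Abraxas2 have 1 probe each.

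More genes of mitochondrial transport and shape, the setting in which Trak2 acts, lay below the cells than above them, as among all tested genes. Of 22 such genes on the array 10 were tested, and limma called 0 in either direction (0% of the 3123 tested genes), with 2 higher and 2 lower at an unadjusted p under 0.05 (5.80% and 21.3% of all). Both microvesicle arrays lay above both cell arrays for 2 genes and below for 5, against 14.9% and 50.3% of all tested genes. On both microvesicle arrays 1 gene stood at least 2-fold above the cell mean and 4 at least 2-fold below, against 6.82% and 24.5% of all. Their median log2 difference was -1.23 (array 1 -0.78, array 2 -1.45), against -0.84 over all tested genes. The mitofusin gene Mfn2, for outer membrane fusion, was at 2.54 ± 0.51 (SE, limma adjusted p = 0.0998), with 2.01 and 3.07 on the microvesicle arrays and 0.26 by a second probe. Its relative Mfn1 was at 1.04 ± 0.33, with its other probes at 1.20 and -0.03. The Miro gene Rhot2, whose product Trak proteins bind, was at -0.47 on microvesicle array 1 and was not detected on array 2, where it was at least 8.41-fold lower than in the cells. The other Rhot2 probes were at -0.27 and -1.28. The dynein heavy chain gene Dync1h1 was at -3.35 ± 1.41, with -1.52 on microvesicle array 1 and -5.18 on array 2. The metaxin gene Mtx1 was at -2.46 ± 1.08 (-1.09 and -3.82) and the fission factor gene Fis1 at -0.94 ± 0.89 (0.18 and -2.05), so these means depend on which microvesicle array is read. The other probes of Mtx1 were at -1.37 and -0.66, and that of Fis1 was at 0.57, opposite in sign.

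Genes of SOCS box proteins and their ligase partners, the setting of Wsb2, lay on both sides of the cells. Of 37 on the array 12 were tested, with 0 called by limma (0% of all tested genes). At limma's unadjusted p under 0.05, 0 were higher and 1 lower, against 5.8% and 21.3% of all tested genes. Both microvesicle arrays exceeded the cells for 3 genes and lay under them for 3, against 14.9% and 50.3% of all. The median was -0.24, with 0.38 on microvesicle array 1 and -0.84 on array 2. Over all tested genes the corresponding medians were -0.84, -0.32 and -1.29, so array 2 was also the lower there. The elongin genes encode proteins that bind the SOCS box. Elob was at 2.45 ± 1.39 (0.65 and 4.26 on microvesicle arrays 1 and 2), with its other probes at 2.14 and 1.90, while Eloc was at -0.32 ± 0.61. The RING subunit gene Rbx1 was at 2.05 ± 0.86, with 0.998 and 3.10, and at 1.43 by its other probe. The SOCS box genes Spsb3 (-0.39 ± 0.67), Cish (-0.98 ± 1.10), a feedback inhibitor of cytokine signalling, and Socs4 (-0.012 ± 0.60) each lay above the cells on microvesicle array 1 and below on array 2. The other probe of Spsb3 was at -1.25.

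The list of cyclic nucleotide kinases, the setting of Prkx and Prkaca, also held related genes such as those of anchors, kinase inhibitors and phosphodiesterases. Another catalytic subunit gene had the highest difference of the 8 tested. Prkacb had normalized log2 values of 8.73 and 11.41 on microvesicle arrays 1 and 2 and 7.22 and 6.31 on the cell arrays. The difference was 3.31 ± 1.11 (SE, n = 2 per group, limma unadjusted p = 0.0465, adjusted p = 0.168), so it did not pass the threshold, though the groups did not overlap. The regulatory subunit gene Prkar1a was at 1.28 ± 0.53, with 0.71 and 1.85. Of 26 genes on the array 8 were tested, with 0 called by limma (0% of all tested genes). At limma's unadjusted p under 0.05, 1 was higher and 1 lower. Both microvesicle values were above the cells for 3 and below for 4. Over all tested genes these shares were 5.8%, 21.3%, 14.9% and 50.3%. The list's median was -1.05, with -0.093 on microvesicle array 1 and -1.25 on array 2, against -0.84, -0.32 and -1.29 over all tested genes. The anchoring protein genes Akap9 (-1.55 ± 1.26) and Akap2 (-1.83 ± 1.11) were at 0.070 and -0.42 on microvesicle array 1 and at -3.17 and -3.24 on array 2. The other probes of Akap9 were at 0.03, 0.10 and -1.53, and that of Akap2 was at -0.11. Another anchoring gene, Akap1, was at 0.48 ± 0.37 and was not detected on microvesicle array 1. The other Akap1 probes ranged from -0.91 to 0.41. The kinase inhibitor gene Pkig was at -1.64 ± 1.08, with -0.26 on microvesicle array 1 and -3.03 on array 2, and its other probes were at 1.26 and 0.98.

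**Figure D4:**
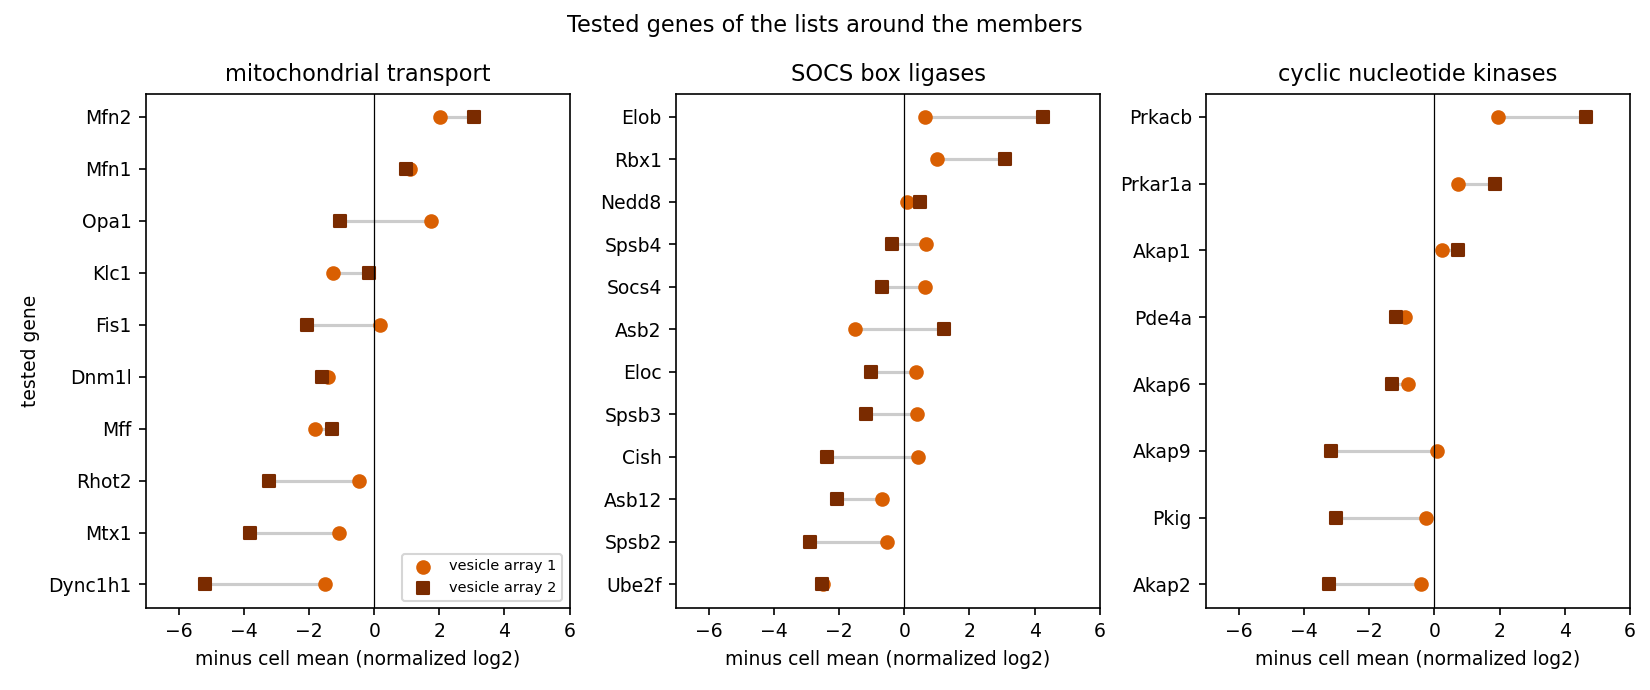
Normalized log2 difference from the cell mean on microvesicle array 1 (circles) and array 2 (squares) for the tested genes of 3 lists, 10 of mitochondrial transport, 12 of SOCS box ligases and 8 of cyclic nucleotide kinases and related genes. Mfn2, Mfn1, Elob, Rbx1, Nedd8, Prkacb, Prkar1a and Akap1 lie to the right of 0 on both arrays, while many genes near 0 on array 1 lie far to the left on array 2.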

How the data were processed

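The authors deposited a table of raw mean bead intensity per probe on a linear scale with its bead standard error, number of beads and detection p-value, per the file headers. A table of processed intensity values, also deposited, has values below 0 and nearly equal array medians, and how it was normalized is not stated in the sources used here. Per the submitters' processing notes, BeadStudio 3.3 was used. Raw signals of the 4 RNA arrays were processed with neqc of limma 3.58.1 (R 4.3.3), with offset 16 and quantile normalization. Probes detected at p under 0.01 on at least 2 RNA arrays entered lmFit and eBayes (two-sided test, Benjamini-Hochberg adjustment over all of them), and the fit was tested on simulated data. The simulated spread was equal in both groups, while the median gap here was 1.29 log2 between microvesicle arrays and 0.16 between cell arrays. The simulation thus does not show how the fit behaves with such unequal spread. A bound ("at least") takes as the brighter side the log2 value on microvesicle array 2 or the mean of the cell arrays. It is compared with the higher of the dim probe's own value and the lowest detected value per array. Precision is limited by 2 arrays per RNA group, and a median of 41 beads lay behind each probe. Gene names came from the platform annotation. The leading probe of a gene is its brightest over the RNA arrays, as is the probe that stands for a list gene. Named were all member probes, 3 nearest probes per leading probe and the 6 brightest tested genes per list. Members and lists were chosen with earlier results of these data known. List members absent from the annotation were looked up as RefSeq synonyms.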

Additional observations from a re-analysis of the deposited data

How the results depend on the processing

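Trak2, Wsb2 and Prkx stayed above the cells in all 12 alternatives run on each, and the cause of each change below was not tested. With median scaling their log2 differences were 2.33, 5.42 and 2.73, and with no normalization between arrays 2.41, 5.50 and 2.80. An offset of 50 gave 3.19 for Trak2 and 2.94 for Prkx, no background correction 2.58 for Prkx, the authors' processed values 3.14 for Trak2, and all 5 arrays normalized together 3.40 for Prkx. On leaving out 1 array, Trak2 ranged from 3.19 to 3.34, Wsb2 from 5.75 to 6.92 and Prkx from 3.302 to 3.76. No probe of the relatives was called in any alternative that tested one, and none was tested when detection on all 4 RNA arrays was required.

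The count of 0 called probes held with offset 50, no background correction, all 5 arrays together and the filters at detection p 0.05 and on all 4 RNA arrays. Limma called 1658 with median scaling (11 of the 30 tested list genes), 1421 with no normalization (11), 499 with the authors' values (3), 179 with no filter (1) and 687 with an intensity trend (3). With chip as a block it called 2703 (20). Leaving out 1 array gave 0 to 3383 (0 to 28), with 3383 without microvesicle array 1, 2698 without microvesicle array 2 and 0 without either cell array. In the chip block and the fits without a microvesicle array only the cell arrays give a spread, so the lone microvesicle array is assumed to vary like the cells. The replicate block gave 0 called probes and left each difference as it was. Deviations of same-numbered arrays correlated at -0.24 across probes, and a crossed pairing, chosen after seeing the data, also gave 0.

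The median of the mitochondrial transport genes was -0.66 with no background correction, -0.072 with no filter and -1.63 to -0.73 on leaving out 1 array. That of the SOCS box genes (-0.24) turned sign with chip as a block (0.38) and no filter (0.145), was -1.01 with median scaling and ranged from -0.87 to 0.41 on leaving out 1 array. That of the cyclic nucleotide kinase genes was -0.093 with chip as a block, 0.19 with no filter, -0.067 at detection p 0.05 and -1.40 to -0.099 on leaving out 1 array. With chip as a block the sign turned for Fis1 (0.18), Eloc (0.37), Spsb3 (0.40), Cish (0.42), Socs4 (0.65) and Akap9 (0.070), and for Socs4 also with offset 50 (0.020) and no background correction (0.021). On leaving out 1 array these ranged from -2.11 to 0.19 for Fis1, -1.01 to 0.39 for Eloc, -1.20 to 0.43 for Spsb3, -2.48 to 0.46 for Cish, -0.73 to 0.70 for Socs4 and -3.19 to 0.064 for Akap9, all positive without microvesicle array 2. Means that kept their sign but moved by over 1.5 times included Dync1h1 (-5.37 to -1.55), Mtx1 (-4.03 to -1.15), Akap2 (-3.30 to -0.43) and Pkig (-3.09 to -0.26).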
